A study of Mus musculus with 10 samples.

Results

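The genes described here encode the kinases, checkpoint proteins, kinetochore components and motors that carry a cell through mitosis, and they were followed in mouse keratinocytes without RhoA and in control keratinocytes. RhoA is a small GTPase that organises actin and myosin, and it also drives the contractile ring that separates daughter cells. The list held 43 gene symbols. All probe sets that the platform annotation gives to exactly 1 of those symbols were taken, which gave 93 probe sets for 42 genes, out of 45037 probe sets and 18193 named genes on the array. Ccnb1, the remaining symbol, had no probe set assigned to it alone and is not described. Of the 42 genes, 16 had 1 probe set and 26 had several, and below a gene is represented by its brightest probe set, judged by mean log2 intensity across the 10 arrays.

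RNA from 10 samples was hybridised to Affymetrix arrays in 4 groups. KO cells carried RhoA fl/fl K5 cre, in which both RhoA alleles are floxed and Cre is driven by the K5 promoter, active in basal keratinocytes. Control cells carried RhoA fl/+ K5 cre, so they too expressed Cre and had 1 floxed allele, although the sample titles call them Wildtype. Each genotype was sampled as keratinocytes freshly isolated from epidermis (2 KO and 2 control arrays) and as cultured primary keratinocytes (3 KO and 3 control arrays). The labels name biological replicates but no animals or ages, so a p-value here reflects the spread between the samples, which may be technical. Fresh and cultured arrays were on different intensity scales: the array median was 64.1 to 64.8 in fresh cells and 7.75 to 8 in culture. Intensities are therefore set against each other only between KO and control of the same condition.

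Rhoa itself was read by 3 probe sets. Whether they lie inside the floxed stretch is unknown, and they therefore do not check the genotype labels. Its representative probe set read 4398 and 4296 on the KO arrays, against 3526 and 4059 on the control arrays, in fresh cells. In culture it read 8209, 7839 and 7628 on the KO arrays, against 11249, 9879 and 9240 on the control arrays. As a check of the labelled cell type, the basal keratin gene Krt5 read 21546 to 23502 in fresh cells and 46739 to 55479 in culture. Krt15, a further basal keratin gene, read 17211 to 20241 in fresh cells and 3.76 to 4.69, at the floor of the scale, in culture. Of the 4 fresh arrays, KO replicate 2 stood apart. The summed intensity of 13 hair follicle matrix and shaft markers was 45064 on that array and 5063 on KO replicate 1, against 5883 to 6764 on the control arrays. Several other marker lists were apart by genotype in fresh cells. Melanocyte markers summed to 935 to 4467 on KO arrays and 478 to 621 on control arrays, with 6 of 6 higher on both KO arrays. Fibroblast markers summed to 445 to 1344 on KO arrays and 278 to 303 on control arrays, also with 6 of 6. Of all measured genes, 27.6% were higher in fresh KO cells without overlap. Col1a1, Lum and Pdgfra stayed below the array median throughout, and Mlana, Tyrp1 and Col3a1 passed the filter on low values through the KO arrays alone. Outer sheath and bulge markers summed to 18858 to 19913 on KO arrays and 14393 to 16243 on control arrays, with 2 of 6 higher and 4 lower by group mean. Langerhans and myeloid markers were on the other side, at 5623 to 11989 on KO arrays and 14381 to 18245 on control arrays with 6 of 6 lower by group mean, as were sebocyte markers, at 859 to 954 and 1066 to 1203 with 2 of 4 lower, and basal keratinocyte markers, at 91284 to 91518 and 92183 to 94887 with 5 of 7 lower. The part of these shifts in the mitotic transcripts of fresh cells was not tested. Endothelial and erythrocyte markers did not pass the filter on low values in either condition. Results in fresh cells are given with and without KO replicate 2.

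Entry into mitosis is driven by Cdk1 bound to its cyclins, together with the Aurora and Polo-like kinases. The spindle assembly checkpoint holds the cell in metaphase until every kinetochore, the protein platform built on centromeric chromatin, is attached to microtubules, after which the anaphase-promoting complex marks cyclins and securin for degradation. In epidermis, division is largely a property of the basal layer, and transcripts of these genes are made mainly in the G2 and M phases, so their abundance in a tissue sample is widely used as a readout of cycling cells. Many of their promoters carry a cell cycle genes homology region (CHR), a short element bound by the DREAM and MuvB complexes, and CCAAT boxes bound by NF-Y.

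The promoters of 6 members are shown because these genes include some of the largest KO differences described below and because they differ in those elements. Each line gives 120 bases before and 30 bases after the annotated transcription start, from RefSeq on build GRCm38.p6. Capitals mark CHR letters, either TTTGAA or, in some genes, TTTAAA, the box CCAAT, or an E2F-type element, which was searched as TTCCCGC and with the spellings TTCGCGC in addition to TTGGCGC together with TTGCCGC, each searched on both strands so that reverse complements are also in capitals. No marked motifs overlap in these stretches.
Ccnb2 (chr9:70421525-70421674, minus strand): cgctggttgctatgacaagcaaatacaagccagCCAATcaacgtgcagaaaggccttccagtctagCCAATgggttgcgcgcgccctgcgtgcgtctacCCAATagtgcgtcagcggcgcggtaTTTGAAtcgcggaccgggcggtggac
Cdk1 (chr10:69352883-69353032, minus strand): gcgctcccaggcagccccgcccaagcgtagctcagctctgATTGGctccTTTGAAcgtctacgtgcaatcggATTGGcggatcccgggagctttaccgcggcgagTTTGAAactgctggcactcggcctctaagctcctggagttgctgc
Plk1 (chr7:122159315-122159464, plus strand): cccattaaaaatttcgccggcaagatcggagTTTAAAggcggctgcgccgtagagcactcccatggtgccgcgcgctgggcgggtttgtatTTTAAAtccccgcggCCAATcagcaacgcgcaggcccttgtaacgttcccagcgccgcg
Ube2c (chr2:164769809-164769958, plus strand): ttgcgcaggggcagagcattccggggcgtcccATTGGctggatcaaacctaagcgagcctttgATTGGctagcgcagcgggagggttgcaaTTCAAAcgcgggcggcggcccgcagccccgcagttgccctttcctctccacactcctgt
Birc5 (chr11:117849117-117849266, plus strand): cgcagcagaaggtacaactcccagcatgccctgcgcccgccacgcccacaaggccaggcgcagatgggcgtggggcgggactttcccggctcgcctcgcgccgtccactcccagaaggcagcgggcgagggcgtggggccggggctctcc
Cenpm (chr15:82244307-82244456, minus strand): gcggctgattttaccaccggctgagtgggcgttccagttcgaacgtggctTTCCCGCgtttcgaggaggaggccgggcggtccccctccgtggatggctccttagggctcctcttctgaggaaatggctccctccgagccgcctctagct

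Ccnb2, Cdk1, Plk1 and Ube2c have CHR letters within 60 bases before the start or just after it, together with a CCAAT box. The Birc5 stretch holds none of the searched letters, and the Cenpm stretch holds an E2F-type match alone. Promoter windows from 250 bases before to 50 bases after the start were available for 34 of the 42 genes (37 windows). CHR letters from 60 bases before the start onwards occurred in 23 of the 37 windows (62.2%), against 9.12% of all 32851 windows in the table. CCAAT occurred in 29 of 37 (78.4%), against 37.4% of all windows, and both together in 21 (56.8%), against 3.68%. E2F-type letters occurred in 8 (21.6%), against 9.57%. These matches describe letters and not bound sites. By CHR letters near the start, the members had similar median KO changes. The median log2 change in fresh cells was 0.67 for the 22 measured genes with them and 0.70 for the 11 without, and in culture -0.25 and -0.23. The cultured changes ran from -0.55 to 0.12 with CHR letters and from -1.02 to -0.16 without. CCAAT and E2F-type letters were not set against the KO change.

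**Figure D1:**
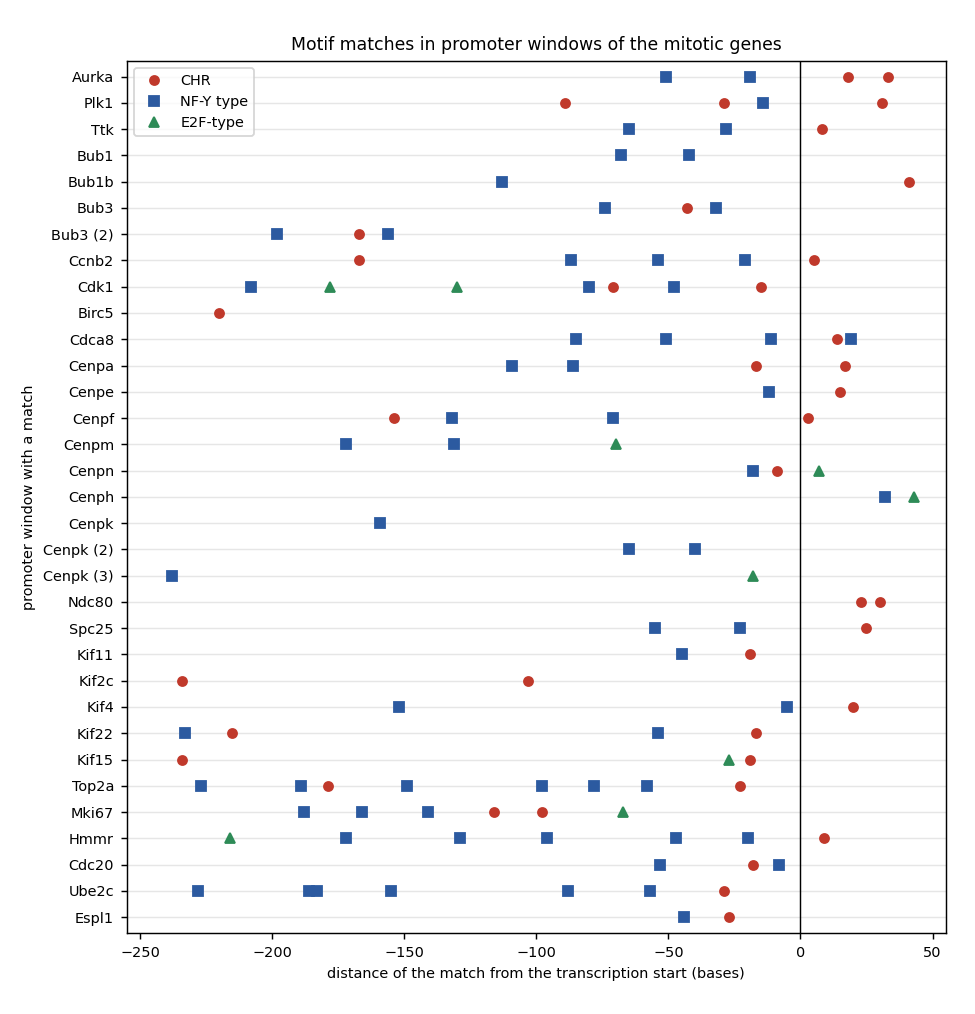
Position of motif matches (bases from the annotated start, horizontal axis) in the promoter windows that held at least 1 match, 1 line per window, with a number in parentheses where a gene has several windows. Circles are CHR letters, squares are NF-Y type boxes and triangles are E2F-type letters, and CHR circles gather around the start, where 23 of 37 windows hold them.

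Between KO and control cells, the mitotic genes lay on opposite sides in fresh epidermal cells and in culture. In fresh cells KO values were higher than control values for 41 of 41 measured members, where 52.1% of all measured genes were higher. Their median log2 change was 0.70 (1.62-fold), against 0.01 for all measured genes. In culture 35 of 41 were lower in KO, where 52.6% of all measured genes were, and 6 were higher (Aurka, Bub3, Incenp, Cdca8, Cenpe and Cdc20). The cultured median was -0.24, against -0.01 for all measured genes, and it was -0.12 without KO replicate 1 of the cultures. Being lower in culture and higher in fresh cells, which held for 35 members, held for 27.8% of all genes measured in both. No member passed the adjusted threshold of 0.05 within either condition by its representative probe set, so these are directions and sizes and not calls. The arrays hold bulk RNA, in which fewer cells of a type and less RNA per cell cannot be told apart. Kif15, a spindle kinesin, was left unmeasured in both conditions: it read 33.3 and 43.7 on KO arrays and 34.2 and 42.6 on control arrays in fresh cells, and 5.66 to 6.06 on all cultured arrays.

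**Figure D2:**
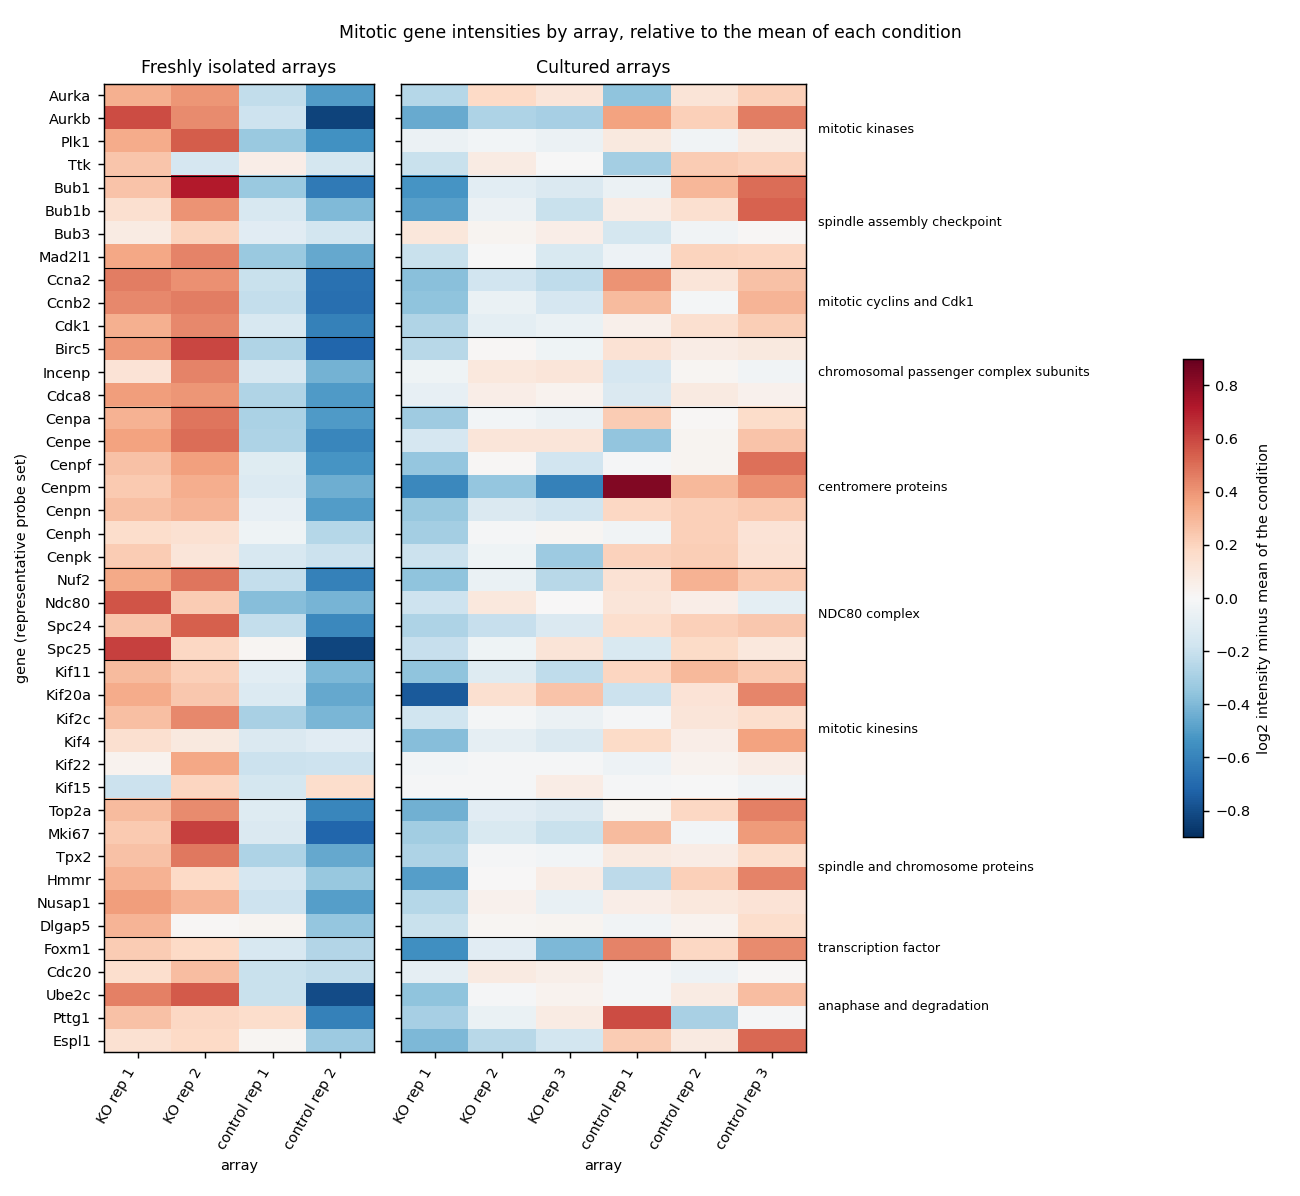
Log2 intensity of each of the 42 genes (lines) on each array (columns), minus the gene's mean over the arrays of that condition, with red above and blue below that mean. In fresh cells both KO columns are red for nearly every gene and control replicate 2 is the bluest, and in culture KO replicate 1 is the bluest column.

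In fresh cells, 35 of 41 members were higher at an unadjusted p under 0.05, where 7.64% of all measured genes were. The groups did not overlap for 39 of 41, where 27.6% of all measured genes were higher in KO without overlap, and the exceptions were Ttk and Dlgap5. After adjustment over all probe sets the background was 0% (no probe set passed), and the smallest adjusted p among members was 0.242, for Mad2l1 and Cdca8. Without KO replicate 2, the array rich in hair follicle transcripts, all 41 remained higher with a median of 0.63, and 31 were at an unadjusted p under 0.05, where 6.05% of all genes were. Without control replicate 2 the median was 0.47 and 22 were at that level, where 1.93% of all genes were. Without KO replicate 1 there were 7 members past the adjusted threshold, where 1.53% of all genes were. In 1 limma fit over all 10 arrays with a shared variance 16 members passed it, where 0.916% of all genes did.

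In culture, 20 of 41 members were lower at an unadjusted p under 0.05 and none higher, where 9.73% of all measured genes were lower at that level. The groups did not overlap for 22 lower members, where 13.5% of all genes were lower without overlap, and for 1 higher member, Bub3, where 11.2% were higher. After adjustment, 0.118% of all genes were called lower. The smallest adjusted p among members was 0.0669, for Aurkb. The count at an unadjusted p under 0.05 was 12 without control replicate 3, where 6.24% of all genes were lower at that level, and 13 without KO replicate 1, where 7.44% were. The summed intensity of 6 suprabasal markers was 4499 to 6870 on KO arrays and 1430 to 1717 on control arrays in culture. All 6 were higher and 2 were called, where 0.182% of all genes were called higher. Basal keratinocyte markers summed to 190792 to 204192 on KO arrays and 167147 to 204311 on control arrays. By group mean 7 of 7 were higher in KO, 1 of them without overlap, with Krt15 below the array median throughout. Melanocyte markers summed to 423 to 1320 on KO arrays and 222 to 481 on control arrays, with 4 of 4 measured ones higher and a median log2 change of 1.36. At an unadjusted p under 0.05, 3 of them were higher, where 8.05% of all genes were, while Kit and Tyr were below the array median throughout. The part of these shifts in the lower mitotic transcripts was not tested.

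The direct comparison of the conditions asked whether the KO effect in culture differed from the KO effect in fresh cells. This difference, KO minus control in culture minus KO minus control in fresh cells, was negative for all 41 members, where it was negative for 55.9% of all genes, with a median of -0.95 on the log2 scale, against -0.05 for all genes measured in both. It passed an adjusted p of 0.05 for 24 of 41 members, where 1.47% of all genes were called in that direction, and had an unadjusted p under 0.05 for 37, where 12.5% did. Members lower in culture and higher in fresh cells with an unadjusted p under 0.05 in both numbered 18, where 1.2% of all genes met that rule. The call rests on few arrays: 0 members passed when control replicate 2 of the fresh cells was left out, where 0.0718% of all genes passed, although 31 had an unadjusted p under 0.05, where 6.83% did. Without control replicate 3 of the cultures 12 passed, where 0.572% of all genes did, and without KO replicate 2 of the fresh cells 17 passed, where 1.01% did. In the fit over all 10 arrays 0 members and 0% of all genes passed, and 36 members had an unadjusted p under 0.05, where 10.5% of all genes did. Over the alternative settings the calls of Bub1b and Cenpk were lost in most, being kept in 7 of 21 and 7 of 20, while those of the other 22 genes were kept in at least 15.

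**Figure D3:**
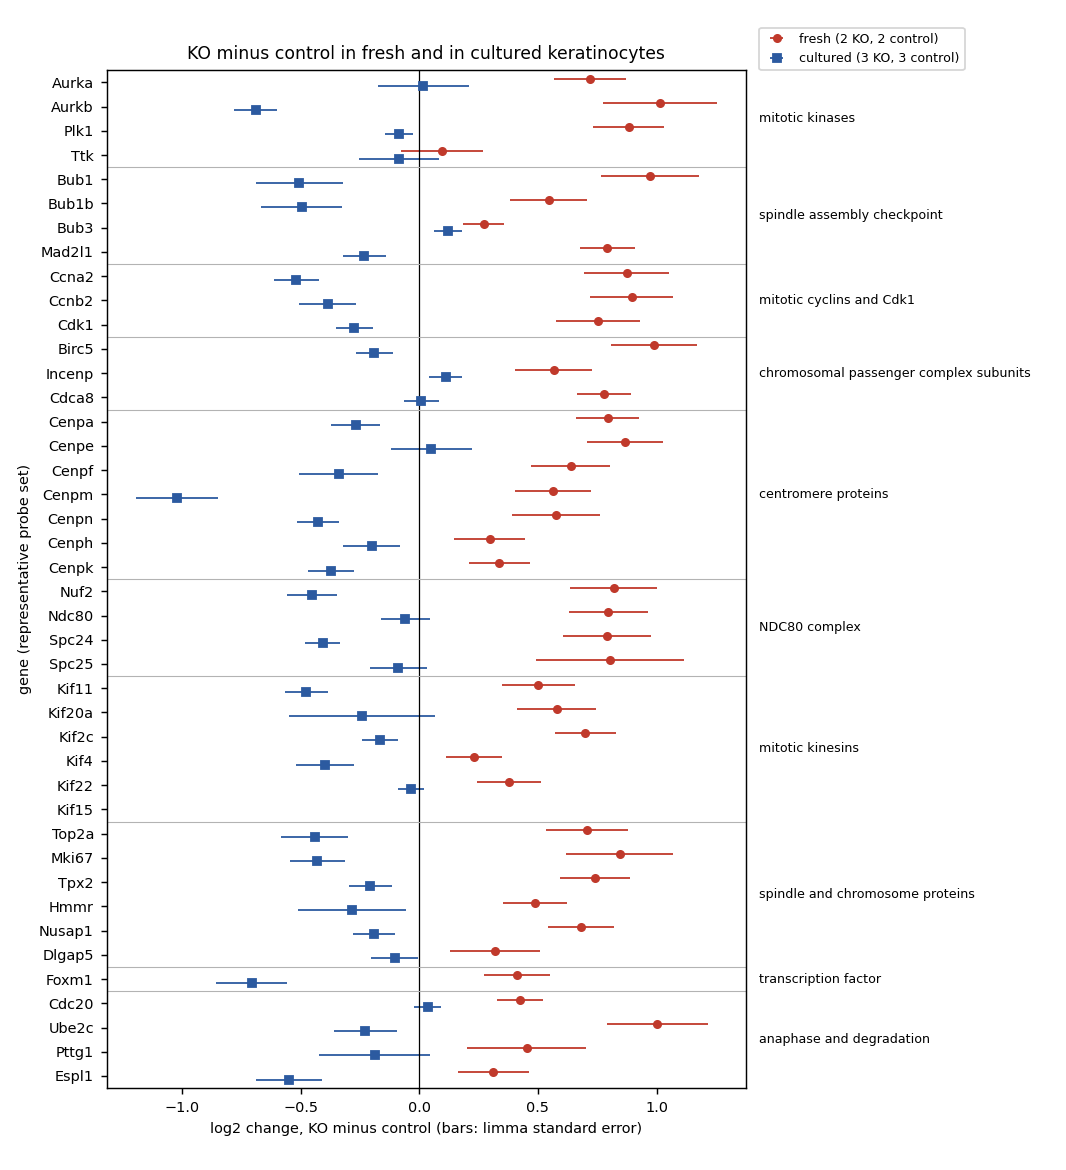
Log2 change of KO against control for each gene, with limma standard errors as bars, in fresh cells (circles, 2 KO and 2 control arrays) and in culture (squares, 3 and 3). All fresh points lie right of 0, from 0.10 for Ttk to 1.01 for Aurkb, and most cultured points lie left of it, down to -1.02 for Cenpm; Kif15 was not measured.

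Among the mitotic kinases, Aurkb, the catalytic subunit of the chromosomal passenger complex, differed most between the conditions. In fresh cells it read 198 and 177 on KO arrays, against 116 and 74.0 on control arrays (log2 change 1.01, SE 0.24). Cultured arrays gave 1484, 1678 and 1652 on KO arrays, against 2616, 2364 and 2795 on control arrays (log2 change -0.69, SE 0.09). KO and control arrays did not overlap in either condition, and the difference between the KO effects was -1.70 (SE 0.26, limma adjusted p = 0.0122).

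Plk1, the Polo-like kinase of mitotic entry and spindle assembly, read 286 and 331 on KO arrays, against 179.5 and 155 on control arrays, in fresh cells (log2 change 0.88, SE 0.15). Its cultured values were 2622, 2682 and 2633 on KO arrays, against 2895, 2672 and 2863 on control arrays (log2 change -0.09, SE 0.06). Plk1 was separated by genotype in fresh cells and overlapping in culture, and the fresh change was the greater part of its difference of -0.97 (SE 0.16, adjusted p = 0.0167). Aurka, the centrosomal Aurora kinase, had a fresh log2 change of 0.72 and a cultured one of 0.02, and its difference of -0.70 did not pass (adjusted p = 0.155). Ttk, which encodes the checkpoint kinase Mps1, had changes of 0.10 and -0.09 and overlapped between genotypes in both conditions by its representative probe set. A dimmer Ttk probe set gave 0.73 in fresh cells and -0.18 in culture, but it passed the fresh filter through the KO arrays alone.

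Of the spindle assembly checkpoint genes, Bub1, a kinetochore kinase that recruits other checkpoint proteins, read 244 and 335 on KO arrays, against 162 and 132 on control arrays, in fresh cells (log2 change 0.97, SE 0.21). Cultured cells gave 2649.6, 3591 and 3499 on KO arrays, against 3703, 4726 and 5439 on control arrays (log2 change -0.51, SE 0.18). Genotypes were separated in both conditions, although KO replicates 2 and 3 lay just under the lowest cultured control. The difference was -1.48 (SE 0.28, adjusted p = 0.0247). The other Bub1 probe set was the only member probe set called within a condition, at 26.8, 29.0 and 25.3 on KO arrays, against 45.8, 49.9 and 51.3 on control arrays, in culture (log2 change -0.86, adjusted p = 0.0444), where 0.0926% of all probe sets were called lower.

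Bub1b, which encodes the mitotic checkpoint complex component BubR1, read 274 and 327 on KO arrays, against 224 and 188 on control arrays, in fresh cells (log2 change 0.55, SE 0.16). The cultured values were 647, 877 and 789.5 on KO arrays, against 953, 1003 and 1311 on control arrays (log2 change -0.50, SE 0.17). All KO arrays lay on the same side of all controls within each condition, with opposite sides in the 2 conditions. The difference of -1.04 (SE 0.23, adjusted p = 0.0495) lay at the threshold, with adjusted p-values up to 0.272 over the alternatives, and a further Bub1b probe set gave -1.07 (adjusted p = 0.0642).

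Mad2l1, which encodes the Cdc20 inhibitor Mad2, read 652 and 699 on KO arrays, against 407 and 373 on control arrays, in fresh cells (log2 change 0.79, SE 0.12). Its cultured values of 6922, 7930.1 and 7224 on KO arrays and 7698, 9145 and 9122 on control arrays overlapped through KO replicate 2 (log2 change -0.23, SE 0.09). With -1.02 (SE 0.15) its difference had the smallest adjusted p of the members, 0.011. Bub3, which brings Bub1 and BubR1 to kinetochores, differed least from culture to fresh cells, with changes of 0.12 in culture and 0.27 in fresh cells and a difference of -0.15 (adjusted p = 0.464).

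The mitotic cyclin genes and Cdk1 passed the difference test in all 3 measured cases. Ccna2, the cyclin of S phase and early mitosis, read 732 and 706 on KO arrays, against 462 and 333 on control arrays, in fresh cells (log2 change 0.87, SE 0.18). In culture it read 4141, 4759 and 4591 on KO arrays, against 7122, 5795 and 6433 on control arrays (log2 change -0.52, SE 0.10). The genotypes were well apart in each condition, and the difference was -1.39 (SE 0.20, adjusted p = 0.0111).

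Ccnb2, a B-type cyclin partner of Cdk1 whose promoter is shown above with 3 CCAAT boxes and a CHR match, read 757 and 773 on KO arrays, against 483 and 350.2 on control arrays, in fresh cells (log2 change 0.90, SE 0.18). Cultured values were 3377, 4172 and 3908 on KO arrays, against 5306, 4306 and 5384 on control arrays (log2 change -0.39, SE 0.12). KO replicate 2 came within a small margin of control replicate 2 in culture, without overlap, and the difference was -1.28 (SE 0.21, adjusted p = 0.0167). Cdk1, the kinase that starts mitosis, read 771 and 832 on KO arrays, against 559 and 405 on control arrays, in fresh cells (log2 change 0.75, SE 0.18). It read 8094, 9202 and 9381 on KO arrays, against 10072, 10790.4 and 11359.5 on control arrays, in culture (log2 change -0.27, SE 0.08). Neither condition showed overlap for Cdk1, and its difference was -1.03 (SE 0.19, adjusted p = 0.0266).

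The other chromosomal passenger complex subunits were apart by genotype mainly in fresh cells. Birc5, which encodes survivin, read 725 and 839 on KO arrays, against 458 and 337 on control arrays, in fresh cells (log2 change 0.99, SE 0.18). Cultured arrays gave 7953, 9509 and 9184 on KO arrays, against 10344, 9913 and 10040.2 on control arrays (log2 change -0.19, SE 0.08). The fresh change was 1.98-fold, the cultured gap was small but without overlap, and the difference was -1.18 (SE 0.20, adjusted p = 0.0167).

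Cdca8, which encodes borealin, read 1740.3 and 1768 on KO arrays, against 1113 and 941 on control arrays, in fresh cells (log2 change 0.78, SE 0.11). Cultured arrays gave 6857, 7513 and 7381 for KO and 6592, 7636 and 7409 for control (log2 change 0.01, SE 0.07). By this probe set the genotypes overlapped fully in culture, and the called difference of -0.77 (SE 0.14, adjusted p = 0.021) was nearly the size of the fresh change. Both of the dimmer Cdca8 probe sets were lower in cultured KO without overlap (log2 change -0.22 and -0.19), with called differences of -1.18 and -1.05 (adjusted p = 0.0308 and 0.0283). Incenp, the scaffold subunit, read 999.9 and 1248 on KO arrays, against 832 and 683 on control arrays, in fresh cells (log2 change 0.57, SE 0.16). The cultured values were 10541, 11572 and 11676 on KO arrays, against 9727, 10951 and 10614 on control arrays (log2 change 0.11, SE 0.07). Incenp was on the higher side in KO in both conditions and its difference of -0.46 did not pass (adjusted p = 0.195).

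Of the 7 centromere protein genes measured, 4 passed the difference test. Cenpa, the histone H3 variant that marks centromeres, read 809 and 912 on KO arrays, against 535 and 458 on control arrays, in fresh cells (log2 change 0.79, SE 0.13). In culture it read 2769, 3399.9 and 3336 on KO arrays, against 4061, 3490.2 and 3874 on control arrays (log2 change -0.27, SE 0.11). Cenpa was separated by genotype in both conditions, narrowly in culture, and its difference was -1.06 (SE 0.17, adjusted p = 0.0152).

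Cenpm, a subunit of the constitutive centromere network, had the largest cultured change of all members. It read 151, 176 and 148 on KO arrays, against 400.0, 275 and 299 on control arrays, in culture (log2 change -1.02, SE 0.17), and 219 and 234 on KO arrays, against 171 and 138 on control arrays, in fresh cells (log2 change 0.56, SE 0.16). Every cultured KO value was below every cultured control by a wide gap, and the difference was -1.59 (SE 0.23, adjusted p = 0.0111). The limma adjusted p in culture alone was 0.101.

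Cenpn, which reads the Cenpa nucleosome, gave 154 and 158 on KO arrays, against 122 and 90.0 on control arrays, in fresh cells (log2 change 0.58, SE 0.18). Cultured values were 486, 562 and 544 on KO arrays, against 699.7, 714 and 725 on control arrays (log2 change -0.43, SE 0.09). The 3 cultured controls lay close together and above all KO arrays, and the difference was -1.0 (SE 0.20, adjusted p = 0.0346). Cenpk, of the same network, read 235 and 216 on KO arrays, against 182 and 175 on control arrays, in fresh cells (log2 change 0.34, SE 0.13). It read 870.4, 968 and 791 on KO arrays, against 1148, 1157 and 1089 on control arrays, in culture (log2 change -0.37, SE 0.10). Its genotypes were apart in both conditions, with a difference of -0.71 (SE 0.16, adjusted p = 0.0495) that also lay at the threshold, with adjusted p-values up to 0.299 over the alternatives. The kinetochore motor gene Cenpe had a fresh change of 0.87 and a cultured one of 0.05, Cenpf 0.64 and -0.34, and Cenph 0.30 and -0.20, and none of these 3 passed the difference test (adjusted p = 0.0988, 0.0613 and 0.195). A dimmer Cenpe probe set gave 0.23 in fresh cells and 0.54 in culture, with a difference of 0.31. It was the only positive difference among 67 member probe sets measured in both conditions, where 45.4% of all probe sets were higher.

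The NDC80 complex is the microtubule-binding rod of the outer kinetochore, and its 4 subunit genes had fresh changes between 0.79 and 0.82. Nuf2 read 122 and 134 on KO arrays, against 82.9 and 63.2 on control arrays, in fresh cells (log2 change 0.82, SE 0.18). Cultured arrays gave 879, 1084 and 951 on KO arrays, against 1237, 1405 and 1334 on control arrays (log2 change -0.45, SE 0.10). Spc24 read 264 and 322 on KO arrays, against 191 and 148 on control arrays, in fresh cells (log2 change 0.79, SE 0.19). Both subunits separated by genotype in fresh cells. In culture Spc24 read 878, 922 and 973 on KO arrays, against 1181, 1235 and 1259 on control arrays (log2 change -0.41, SE 0.07). The differences were -1.27 for Nuf2 (SE 0.21, adjusted p = 0.0167) and -1.20 for Spc24 (SE 0.20, adjusted p = 0.0167). Their partners were nearly level in culture: Ndc80, the partner of Nuf2, had a cultured change of -0.06 and Spc25, the partner of Spc24, one of -0.09, with overlap of the genotypes, and their differences of -0.86 and -0.89 did not pass (adjusted p = 0.0523 and 0.185).

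Among the mitotic kinesins, Kif11, the motor that pushes spindle poles apart, read 277 and 264 on KO arrays, against 212 and 172 on control arrays, in fresh cells (log2 change 0.50, SE 0.15). The cultured values were 700.2, 829.5 and 768 on KO arrays, against 1029, 1102 and 1059 on control arrays (log2 change -0.48, SE 0.09). The changes were of nearly equal size and opposite sign, without overlap, and the difference was -0.98 (SE 0.18, adjusted p = 0.0226).

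Kif2c, the microtubule-depolymerising motor MCAK, read 405 and 454 on KO arrays, against 276 and 253 on control arrays, in fresh cells (log2 change 0.70, SE 0.13). Cultured values were 2505, 2798 and 2727 on KO arrays, against 2806, 3045 and 3149.6 on control arrays (log2 change -0.16, SE 0.07). KO replicate 2 lay just under control replicate 1 in culture, and the difference was -0.87 (SE 0.15, adjusted p = 0.0181), while its 2 dimmer measured probe sets gave -0.79 and -0.07 and did not pass (adjusted p = 0.0605 and 0.873). Kif4, a chromokinesin of the midzone, was the reverse of this pattern, with a fresh change of 0.23 and a cultured one of -0.40, and its difference of -0.63 did not pass (adjusted p = 0.083). The chromokinesin gene Kif22 had changes of 0.38 and -0.04 by its representative probe set, with a difference that did not pass (-0.41, adjusted p = 0.16). Its 2 dimmer probe sets gave 0.76 and 0.94 in fresh cells and -0.29 and -0.35 in culture, without overlap, and the second of them passed the difference test (-1.28, adjusted p = 0.0181). Kif20a, a motor of cytokinesis, had changes of 0.58 and -0.24. The cultured Kif20a values were scattered, with 1273, 2374 and 2566 on KO arrays and 1881, 2343 and 2913 on control arrays.

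The spindle and chromosome proteins gave 4 called differences out of 6 genes. Top2a, the topoisomerase that untangles sister chromatids, read 1684 and 1854 on KO arrays, against 1276 and 920.0 on control arrays, in fresh cells (log2 change 0.71, SE 0.17). In culture it read 6087, 7646 and 7492 on KO arrays, against 8327, 9322 and 11228 on control arrays (log2 change -0.44, SE 0.14). Genotypes were apart in both conditions for Top2a, and its difference was -1.15 (SE 0.22, adjusted p = 0.0297).

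Mki67, the proliferation marker Ki-67 that coats mitotic chromosomes, read 2132 and 2773 on KO arrays, against 1655 and 1108 on control arrays, in fresh cells (log2 change 0.84, SE 0.23). It read 6671, 7542 and 7208 on KO arrays, against 10101, 8143 and 10767 on control arrays, in culture (log2 change -0.43, SE 0.12). No KO array reached a control value in culture, no control array reached a KO value in fresh cells, and the difference was -1.27 (SE 0.25, adjusted p = 0.0322).

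Tpx2, which activates Aurora A on the spindle, read 254 and 294 on KO arrays, against 174 and 154 on control arrays, in fresh cells (log2 change 0.74, SE 0.15). Cultured values were 2182, 2624 and 2599.7 on KO arrays, against 2795, 2771 and 2949.6 on control arrays (log2 change -0.21, SE 0.09). KO replicate 1 was well below the other cultured KO arrays, and the difference was -0.95 (SE 0.17, adjusted p = 0.0231). Nusap1, a microtubule-bundling protein gene, read 821 and 782 on KO arrays, against 555 and 449 on control arrays, in fresh cells (log2 change 0.68, SE 0.14). Cultured arrays gave 2043, 2510.3 and 2332 on KO arrays, against 2550.3, 2612 and 2662 on control arrays (log2 change -0.19, SE 0.09). Nusap1 followed the pattern of Tpx2, with a difference of -0.87 (SE 0.17, adjusted p = 0.0266). Hmmr (0.49 in fresh cells, -0.28 in culture) and Dlgap5 (0.32 and -0.10), both spindle assembly factors, did not pass the difference test.

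Foxm1, the transcription factor that drives many of these genes in G2, read 105 and 102 on KO arrays, against 80.8 and 74.4 on control arrays, in fresh cells (log2 change 0.41, SE 0.14). The cultured values were 324, 443 and 361 on KO arrays, against 651, 543 and 639 on control arrays (log2 change -0.71, SE 0.15). Foxm1 was the only transcription factor in the list, was separated by genotype in both conditions, and had a difference of -1.12 (SE 0.20, adjusted p = 0.0226). All 3 of its probe sets ran the same way, from -0.79 to -0.71 in culture and from 0.14 to 0.41 in fresh cells.

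Of the anaphase and degradation genes, Ube2c, the E2 enzyme of the anaphase-promoting complex, read 1006 and 1075 on KO arrays, against 641 and 420.0 on control arrays, in fresh cells (log2 change 1.0, SE 0.21). Cultured values were 7175, 9185 and 9429.7 on KO arrays, against 9146, 9724 and 11213 on control arrays (log2 change -0.23, SE 0.13). Ube2c overlapped between genotypes in culture, and its difference was -1.23 (SE 0.25, adjusted p = 0.0342). Espl1, which encodes the protease separase that cleaves cohesin, read 444, 494 and 523 on KO arrays, against 690.0, 621 and 839 on control arrays, in culture (log2 change -0.55, SE 0.14). In fresh cells it read 507 and 522 on KO arrays, against 467 and 368 on control arrays (log2 change 0.31, SE 0.15). Espl1 was better separated in culture than in fresh cells, and its difference of -0.86 did not pass (adjusted p = 0.0579). Cdc20, the activator of the complex, had changes of 0.42 in fresh cells and 0.04 in culture, and Pttg1, which encodes securin, 0.45 and -0.19, and neither difference passed (adjusted p = 0.107 and 0.34).

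The members varied together from array to array, so their changes are not independent observations. Relative to the mean of the condition, the median deviation of the 41 members was 0.28 and 0.40 on the fresh KO arrays, against -0.15 and -0.50 on the fresh control arrays. In culture it was -0.30, -0.02 and -0.05 on the KO arrays, against 0.06, 0.11 and 0.22 on the control arrays. Control replicate 2 was the lowest fresh array for 39 of the 41 members, and KO replicate 1 was the lowest cultured array for 32 of 41. Control replicate 3 was the highest cultured array for 22. The median deviation of all genes stayed between -0.03 and 0.01 on all 10 arrays. Across the 41 members, the fresh and the cultured log2 change had a Pearson's r of -0.09 and a Spearman's rho of -0.10, across genes that share the same arrays and are not independent replicates.

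**Figure D4:**
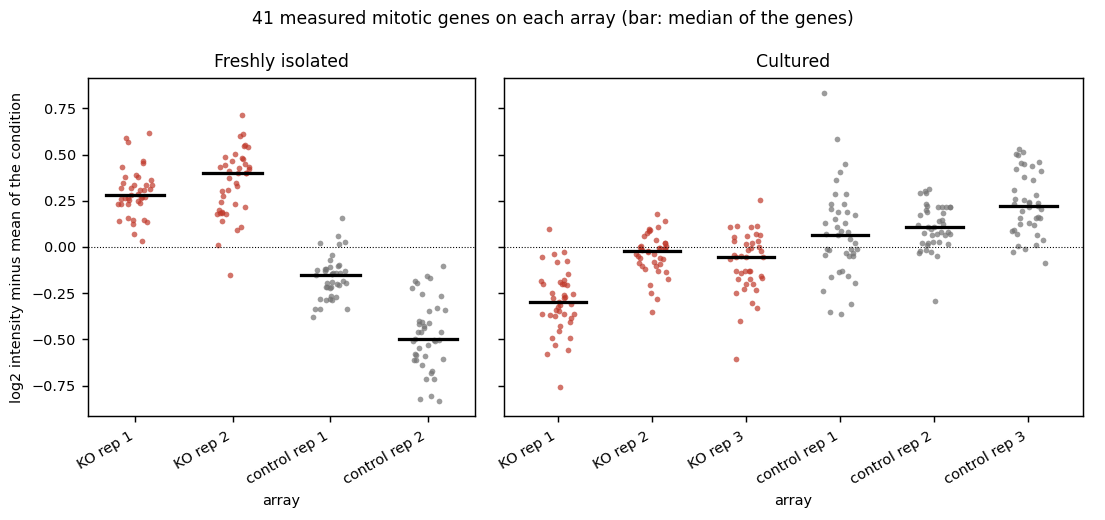
Log2 deviation of the 41 measured members from the mean of their condition on each array, with points for genes and the median marked. Both fresh KO medians (0.28 and 0.40) lie above both fresh control medians, and all 3 cultured KO medians (-0.30 to -0.02) lie below the cultured control medians (0.06 to 0.22).

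Probe sets of the same gene mostly ran the same way. Dimmer probe sets of Aurkb and Ttk had passed the fresh filter through the KO arrays alone, so probe sets were counted here by a mean log2 intensity above the mean of the array medians, a filter chosen after seeing the data. By it 65 of 66 member probe sets were higher in fresh KO cells, where 50.1% of all probe sets were, and the remaining one was a Bub3 probe set at -0.01. By the filter used for the tests 66 of 67 were higher, where 49.9% of all probe sets were. The mean filter therefore need not have removed both the Aurkb and the Ttk probe set. All 41 representative probe sets had passed through arrays of both genotypes. In culture 65 of 79 were lower by the mean filter, where 52.8% of all probe sets were. By the filter used for the tests 66 of 80 were lower, where 52.8% of all probe sets were, and 1 of the 80 had passed through the control arrays alone. Among genes with several measured probe sets, the signs disagreed for 1 of 19 in fresh cells (Bub3) and for 7 of 23 in culture (Bub3, Cdc20, Cdca8, Cenpa, Cenpf, Dlgap5 and Incenp), so for Cenpa, Cenpf and Dlgap5 the lower cultured value, and for Cdca8 the level one, rests on the brighter probe set. Among the 24 genes with a called difference, 11 had further probe sets measured in both conditions by the filter used for the tests, 14 in all. The difference was negative for each of the 14 and called for 6. The called ones include the dimmer Aurkb probe set (-1.41), which had passed the fresh filter through the KO arrays alone and is no separate support.

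Other cell cycle genes, listed by function, were set beside the members, and none of the listed genes passed the adjusted threshold within fresh or within cultured cells. Of all measured genes, 52.6% were lower in culture (9.73% at an unadjusted p under 0.05) and 52.1% were higher in fresh cells (7.64% at that level). On the opposite sides, 8.05% were higher in culture and 7.75% lower in fresh cells at that level. A negative difference was called for 1.47% of all genes. Of 33 DNA replication and S phase genes measured in culture, 32 were lower in KO (21 at an unadjusted p under 0.05), and all 32 measured in fresh cells were higher (11 at that level). Cdc45 and Gins1, parts of the replicative helicase, Pole, a replicative polymerase subunit, and Rfc4, a clamp loader subunit, passed the difference test, at -0.88, -0.95, -0.99 and -0.75. Of 17 other mitotic kinases and regulators of Cdk, 15 were lower in culture (13 at an unadjusted p under 0.05) and 14 of 16 were higher in fresh cells (7 at that level). Wee1, the kinase that inhibits Cdk1, was lower in both conditions, at -0.48 in fresh cells and -0.58 in culture, each without overlap and at that level. Called differences among them were those of Plk4, the kinase of centriole duplication (-0.64), the centrosomal kinase gene Nek2 (-1.11), the Cdk1-activating phosphatase gene Cdc25c (-1.16), the Cdk-binding subunit gene Cks1b (-0.71) and the kinase genes Melk (-0.95) and Pbk (-1.29).

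Of 22 other spindle motors and microtubule proteins, 21 were lower in culture (7 at an unadjusted p under 0.05) and 17 of 18 were higher in fresh cells (14 at that level), leaving out Arhgef39, which passed the fresh filter through the KO arrays alone. Among them Racgap1, a subunit of the centralspindlin complex that acts on RhoA at the cell equator, had a difference of -1.10, and Anln, the contractile ring scaffold anillin, one of -0.74. Cep55, of the abscission machinery, had -1.06 and the spindle protein gene Tacc3 -0.91, and all 4 were called. Other kinetochore genes were lower in culture for 24 of 31 (9 at an unadjusted p under 0.05) and higher in fresh cells for 24 of 26 (9 at that level), with called differences for Cenpp (-0.94), Cenps (-0.96) and Sgo1, the protector of centromeric cohesion (-0.91). Ska1, a microtubule coupler, is left out of the fresh count and of the calls because it passed the fresh filter through the KO arrays alone, at 95.7 and 91.1 on KO arrays, against 59.6 and 43.5 on control arrays. Condensin and cohesin genes were lower in culture for 14 of 19 (9 at that level) and higher in fresh cells for 15 of 19 (6 at that level), and the condensin subunit genes Ncapg (-1.33) and Ncaph (-0.92) were called. The cohesin subunit gene Stag2 was lower in fresh KO cells at an unadjusted limma p of 0.0498 (-0.22), where 7.75% of all genes were lower at an unadjusted p under 0.05.

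Anaphase-promoting complex subunits, which are made throughout the cell cycle, were listed together with Fzr1 and Ube2s, which are not subunits. The genes of this list had smaller changes. Their median log2 change was -0.02 in culture, where 10 of 15 were lower, none of them at an unadjusted p under 0.05. Of the 5 higher, 1, Anapc10, reached that level (0.24), where 8.05% of all genes did. The median was 0.12 in fresh cells, where all 16 were higher. There 1, Anapc15, had an unadjusted limma p under 0.05 (0.0156), where 7.64% of all genes did. No difference was called among them. Of the cell cycle transcription regulators and inhibitors, 16 of 23 were lower in culture, 5 of them at an unadjusted p under 0.05. At that level 2 were higher, Rb1 and Cdkn1a, where 8.05% of all genes were. In fresh cells 12 of 23 were higher, where 52.1% of all genes were, with 3 at that level. There 1 was lower at that level, Ccnd2, where 7.75% of all genes were. E2f8, a repressor of the E2F family, was the only called difference there, at -1.50. It read 633, 838 and 925 on KO arrays, against 1891, 1100.0 and 1814 on control arrays, in culture, and 263 and 266 on KO arrays, against 199 and 171 on control arrays, in fresh cells. The genotypes did not overlap for E2f8 in either condition.

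Cultured and fresh cells were compared by the percentile of each gene's probe set among all probe sets of its array, as a description without a test because the conditions were scaled separately. The median percentile of the 42 genes was 89.8, 91.1 and 91.2 on cultured KO arrays and 91.1, 91.5 and 92.1 on cultured control arrays. It was 77.2 and 76.1 on fresh KO arrays and 72.0 and 71.3 on fresh control arrays. For 37 of the 42 (88.1%), every cultured rank lay above every fresh rank, which held for 39.9% of all named genes, and for none did every cultured rank lie below, which held for 41.6% of all named genes. The 5 exceptions were Mki67, Pttg1, Espl1, Cenpm and the unmeasured Kif15.

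The gap between culture and fresh cells was smaller in KO. The median of cultured minus fresh percentiles was 9.92 points in KO cells and 17.5 points in control cells, against -0.31 and -0.23 over all named genes. Nuf2 had mean percentiles of 84.4 in cultured and 62.3 in fresh KO cells, and 86.8 in cultured and 52.2 in fresh control cells. Mki67 was near the top of every array, with means of 96.1 in cultured and 95.9 in fresh KO cells, and 97.1 in cultured and 92.0 in fresh control cells. Cenpm had 69.4 in cultured and 70.5 in fresh KO cells, and 74.7 in cultured and 64.9 in fresh control cells.

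**Figure D5:**
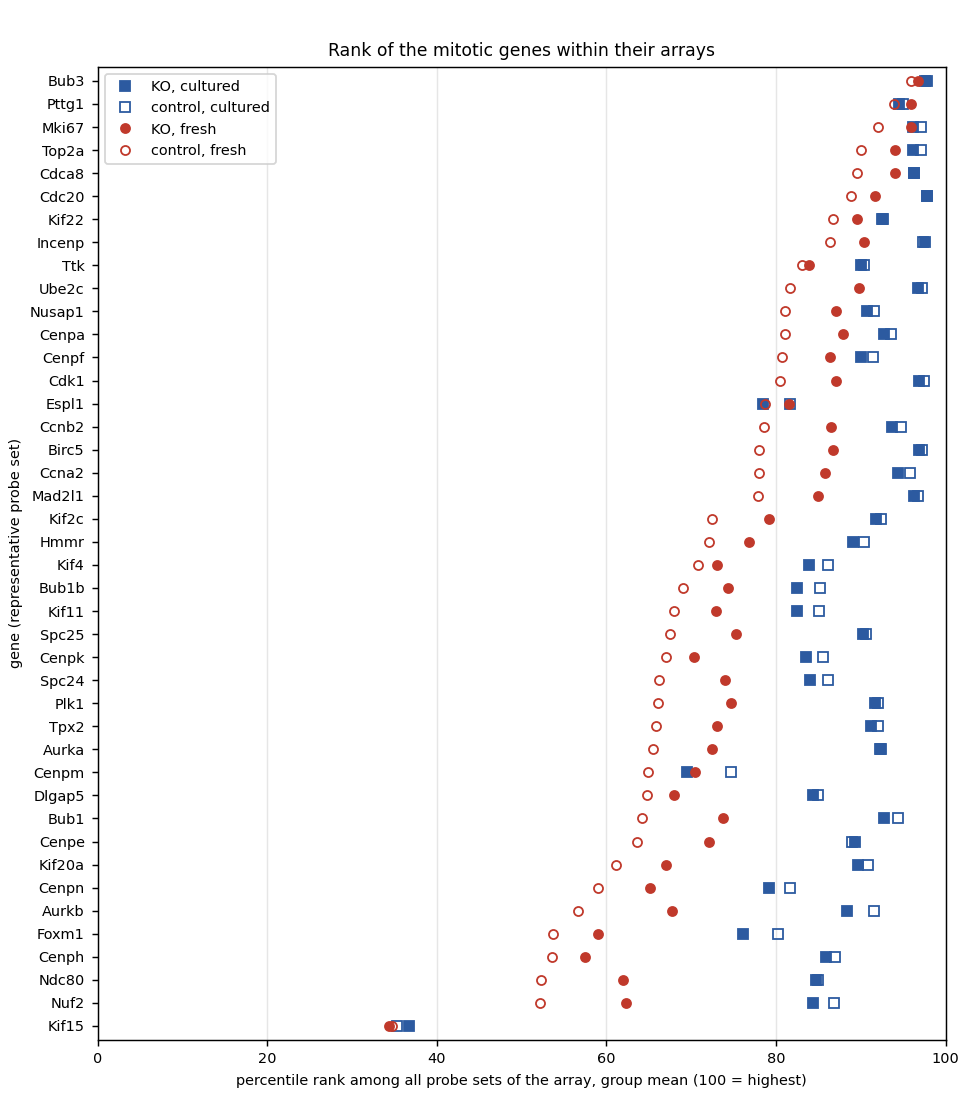
Mean percentile rank of each gene (lines) among all probe sets of an array, where 100 is the brightest, with squares for cultured and circles for fresh cells, filled for KO and open for control. On every array cultured ranks lie above fresh ranks for 37 of 42 genes, and the medians over genes run from 71.3 to 77.2 on fresh arrays and from 89.8 to 92.1 on cultured arrays.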

How the data were processed

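Total RNA of 10 keratinocyte samples was amplified, labelled and hybridised to Affymetrix Mouse Genome 430 2.0 arrays, per the labels' protocols. The authors deposited a table of linear intensity values, with a column per array. The submitters' processing notes name MAS5, and the sources used here do not give its version or settings. Fresh and cultured arrays have different ranges (highest value 31542 to 32618 in fresh cells, 111660 to 123446 in culture), so each condition was fitted on its own. Low cultured values sit at a floor, and changes near it depend on where the authors' procedure put it.

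The log2 of each deposited intensity was taken as it stood. Probe sets that exceeded their array's median on 2 or more arrays within a condition were tested with limma 3.58.1 in R 4.3.3 (lmFit, eBayes with a mean-variance trend, 2-sided), and p-values were adjusted by Benjamini-Hochberg over all probe sets tested (22682 in culture, 22893 in fresh cells). The difference between conditions was taken from both fits with combined moderated standard errors over the 18773 probe sets tested in both. The number of arrays limits the precision. The members and the other gene lists were chosen with earlier results of these data known. Values on every array are given for each member whose difference passed and for the leading members of each role by the larger of their 2 unadjusted p-values. From the other lists the genes that passed are named, or otherwise those with the smallest p. For the subunits of the anaphase-promoting complex these were Anapc10, Anapc15 and Anapc16, with log2 changes of 0.24, -0.14 and 0.08 in culture and 0.03, 0.54 and 0.26 in fresh cells. Promoter sequences came from a RefSeq table of GRCm38.p6. Alternatives were other centrings, filters, offsets, array weights, a shared fit, a replicate block, other probe set rules and leaving out each array, and, added after seeing the data, a filter on mean log2 intensity.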

Additional observations from a re-analysis of the deposited data

Results flagged for a closer look

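For 24 of the 41 measured mitotic genes the KO effect in culture differed from the KO effect in fresh cells at a limma adjusted p under 0.05. Of all genes, 1.47% were called with a negative difference. The difference was negative on the log2 scale for each of these 24 members. Among the kinase, checkpoint and cyclin genes it was -1.70 for Aurkb, -0.97 for Plk1, -1.48 for Bub1, -1.04 for Bub1b, -1.02 for Mad2l1, -1.39 for Ccna2, -1.28 for Ccnb2 and -1.03 for Cdk1. Among the passenger, centromere and NDC80 genes it was -1.18 for Birc5, -0.77 for Cdca8, -1.06 for Cenpa, -1.59 for Cenpm, -1.0 for Cenpn, -0.71 for Cenpk, -1.27 for Nuf2 and -1.20 for Spc24. Among the remaining genes it was -0.98 for Kif11, -0.87 for Kif2c, -1.15 for Top2a, -1.27 for Mki67, -0.95 for Tpx2, -0.87 for Nusap1, -1.12 for Foxm1 and -1.23 for Ube2c. Each value compares 3 KO and 3 control cultured arrays with 2 KO and 2 control fresh arrays, and no gene among the 24 passed the threshold within either condition by its representative probe set. With 4 fresh arrays, KO replicate 2 carrying hair follicle transcripts and control replicate 2 lowest for 39 of 41 genes, the part of these 2 arrays in the differences was tested only by leaving each out, which left 17 and 0 called genes. The Bub1b and Cenpk differences passed in only 7 of 21 and 7 of 20 alternative settings.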

How the results depend on the processing

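The direction of the median held under every setting run. The count of called members did not. In culture it was 0, with 1 under centring on the 75th percentile, 1 with array weights and 2 in 1 fit over all 10 arrays, where 0.309%, 0.728% and 1.54% of all genes were called lower. In fresh cells it was 0, with 16 in the fit over 10 arrays, where 0.916% of all genes were called higher. For the difference it was 24, where 1.47% of all genes were called lower, and 0 in the fit over 10 arrays, where 0% were. The other planned settings with all arrays gave 19 to 28, where 0.803% to 2.66% of all genes were called lower. A filter on the mean log2 intensity, chosen after seeing the data, left 22, without Bub1b and Cenpk, where 1.4% of all genes were called lower. The causes were not tested.

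Leaving out each array in turn gave, in culture, 33 to 37 members lower, 12 to 21 of them at an unadjusted p under 0.05, 0 to 0 called and a median of -0.31 to -0.12. In fresh cells it gave 40 to 41 higher, 22 to 33 at an unadjusted p under 0.05, 0 to 7 called and a median of 0.47 to 0.84. The difference gave 40 to 41 negative, 31 to 38 at an unadjusted p under 0.05, 0 to 27 called and a median of -1.07 to -0.79. A lone remaining fresh array was assumed to vary like the other groups.

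Whether replicate numbers pair the samples is not settled by the values. Same-numbered cultured arrays correlated at 0.32, 0.08 and 0.25 after removing group means, and differently numbered ones at -0.30 to 0.17. KO replicate 2 correlated slightly better with control replicate 3 (0.09) than with control replicate 2. In fresh cells the 2 arrays per group force correlations of equal size and opposite sign, which cannot decide it. With a replicate block, 0 members were called in culture, and 21 were lower at an unadjusted p under 0.05, where 10.8% of all genes were. In fresh cells 0 were called, and 34 were higher at that level, where 6.74% were. For the difference 25 were called, where 1.92% of all genes were, and 38 were at that level, where 13.3% were.

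Small cultured changes turned sign. With array weights Aurka was -0.00056, Cenpe -0.0071 and Ndc80 0.027. When all probe sets of a gene were averaged before the filter, Bub3 was -0.023, Cdca8 -0.13 and Dlgap5 0.028. Without 1 array, cultured changes ran from -0.16 to 0.15 for Aurka, -0.054 to 0.052 for Cdca8, -0.11 to 0.19 for Cenpe, -0.43 to 0.076 for Kif20a, -0.12 to 0.018 for Ndc80, -0.38 to 0.057 for Pttg1 and -0.26 to 0.0078 for Ttk, whose fresh change ran from -0.10 to 0.30 and difference from -0.38 to 0.016. Ranked among the representative probe sets of named genes, the median member percentile was 86.0 in cultured KO, 87.3 in cultured control, 63.9 in fresh KO and 58.2 in fresh control cells.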
